A study of Mus musculus with 20 samples.

Results

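The genes described here are 30 members of the inhibitory system of the brain: subunits of GABA receptors, the enzymes and transporters that make and move GABA, and genes that mark the neurons releasing it. They were taken as a list fixed by symbol, with no cut on their measured values, and are 30 of the 49671 genes counted. The list was chosen with earlier results of these data known. All 30 were among the 18427 genes that passed the filter on low counts. Each of 20 male wild-type mice, aged 10 to 12 weeks and 5 to a group, gave 1 hippocampus for bulk RNA sequencing.

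Control mice carried no tumour and received isotype-matched antibody. ICI mice carried no tumour and received immune checkpoint inhibitors, namely anti-CTLA-4 (3 doses of 1 mg a week) and anti-PD-1 (2 doses of 200 µg a week). Melanoma mice carried D4M-3A.UV2 tumours, a syngeneic mouse melanoma line injected into the skin on both sides at 500000 cells per injection, and received isotype-matched antibody after 1 week of engraftment. Melanoma plus ICI mice carried the same tumours and received both inhibitors, for 3 weeks according to the labels, which give no duration for the tumour-free ICI group. All injections of antibody were intraperitoneal, and all brains were taken 72 hours after the last one. The wild-type strain is not named in the labels. The series concerns inflammation and degeneration in the brain under checkpoint inhibition, and the question for the present genes is whether the inhibitors, the tumour or both altered the transcripts of the inhibitory system.

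GABA is the main inhibitory transmitter of the forebrain. It opens chloride channels built from several subunits around a central pore (GABA-A receptors) and activates a G protein-coupled dimer (GABA-B receptor). In the hippocampus it is released by local interneurons, which are a small share of all neurons and fall into classes named for the peptides and calcium-binding proteins they hold. Which alpha subunit a GABA-A receptor carries decides much about where it sits: receptors with alpha5 or with alpha4 and delta lie largely outside synapses and carry a steady, tonic current. In whole tissue, fewer cells of a type and less RNA per cell cannot be told apart.

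No member passed an adjusted p of 0.05 in any comparison of the groups. This was so for edgeR's quasi-likelihood test, DESeq2 and limma voom, each adjusted over all genes tested. What differed widely was the level of single members between mice of the same group. The levels, their spread, the group comparisons and the marker relations are given in that order.

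Library totals ran from 21990624 to 25735149 counts, so depth was alike throughout. Levels are given as CPM, counts relative to the TMM-scaled library total. Marker lists for hippocampal fields, neighbouring regions and glia were summed up per library as a score, the mean log2 CPM of the list. Every marker of every list was above 0 in all 20 libraries. The CA1 score, a check of the hippocampal label, lay between 5.67 and 7.22, while the dentate gyrus score ran from 2.33 to 6.20 and that of field CA3 from 2.70 to 5.12. The striatum score was at or below 3.41 in 16 libraries and between 5.11 and 6.42 in melanoma replicates 1, 3 and 5 and melanoma plus ICI replicate 3. Control replicate 4 and melanoma plus ICI replicate 1 stood apart in transcript length: genes shorter than 1500 bases lay above genes longer than 5000 bases by 0.61 and 0.35 on the log2 scale, against -0.16 to 0.06 in the other libraries. For many group differences that rest on these libraries, values without them are also given. Correlations given without 2 libraries leave out the 2 farthest from the median score, which need not be the 2 set apart by transcript length.

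Compared per kilobase of exon, by the gene length given with the counts, the 30 members spanned a wide range of levels. The peptide genes Sst and Cck were highest, at 232 ± 53 and 140 ± 38.7 CPM per kb (SD, n = 20), followed by the receptor gene Gabbr1 at 111 ± 7.42. Sst exceeded Cck in 19 of 20 libraries and Cck exceeded Gabbr1 in 17. The lowest were Gabrg1 at 2.24 ± 0.595, Gabrg3 at 1.91 ± 0.359 and the transcription factor gene Sox6 at 1.41 ± 0.282. Many neighbours in the order did not differ beyond their spread: Gabrd, Kit, Nos1 and Dlx1 lay at 10.7, 10.7, 10.3 and 10.1 CPM per kb, and each exceeded the next in 10, 10, 10 and 11 of 20 libraries.

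**Figure D1:**
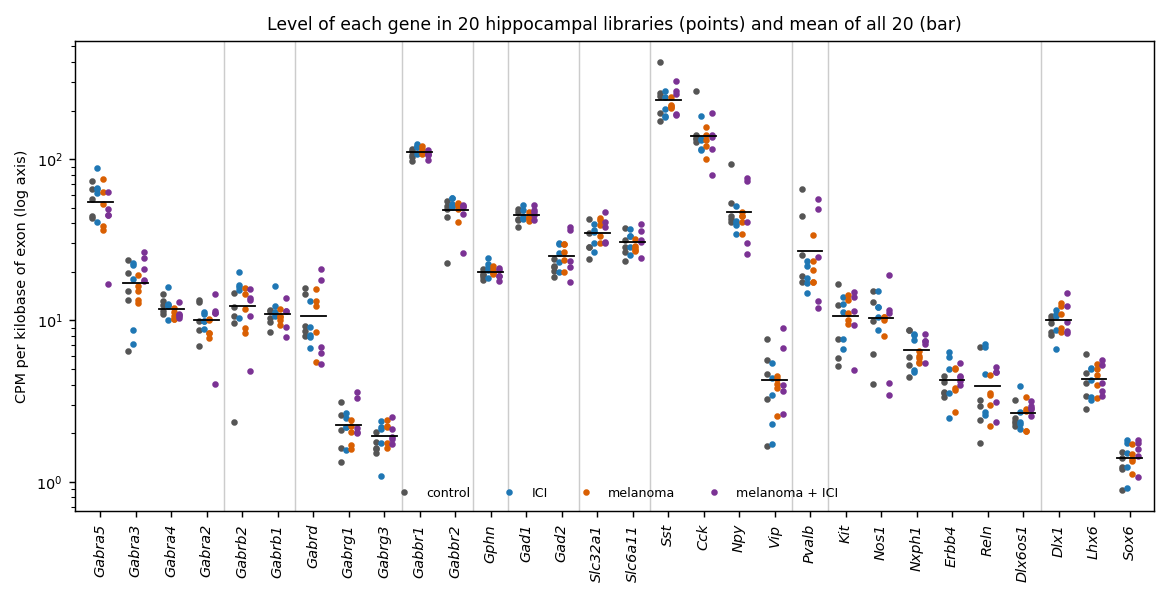
Level of each of the 30 genes in CPM per kilobase of exon (log axis), ordered by role. Each point is 1 of the 20 libraries, coloured by group, and the bar is the mean over all 20. Sst, Cck and Gabbr1 sit highest at 232, 140 and 111 CPM per kb, Sox6 lowest at 1.41, and the 4 groups' points lie among each other for every gene.

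Among the alpha subunits of GABA-A receptors, Gabra5 led. It was at 54.4 ± 16.3 CPM per kb, above the next subunit, Gabra3 at 17.1 ± 5.64, in 19 of 20 libraries. Gabra4 stood at 11.8 ± 1.58 and Gabra2 at 9.99 ± 2.37 CPM per kb. In CPM, Gabra5 read 129.2, 218.1, 192.8, 167.4 and 132.3 CPM in control replicates 1 to 5 and 195.7, 182.9, 260.7, 194.5 and 121.6 CPM in the ICI mice. Gabra5 was at 157.7, 186.2, 108.8, 223.8 and 113.7 CPM in melanoma and 146.2, 134.1, 49.9, 133.9 and 185.4 CPM in melanoma plus ICI. Melanoma plus ICI replicate 3 was the lowest of all 20 and ICI replicate 3 the highest, and each pair of groups overlapped. The edgeR quasi-likelihood test put melanoma plus ICI against ICI at -0.56 on the log2 scale (SE 0.28, 5 against 5 mice), with an adjusted p of 0.58. Gabra5 was picked for these values, and the difference was -0.35 without melanoma plus ICI replicate 3 and -0.72 without melanoma plus ICI replicate 5. With 4 region scores as covariates (striatum, neocortex, dentate gyrus and choroid plexus) it was 0.11, with the opposite sign.

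Gabra5 varied with the CA3 markers across the libraries. Its log2 CPM had a Pearson r of 0.85 with the CA3 score (permutation adjusted p = 0.000857, n = 20; Spearman rho 0.80, adjusted p = 0.00257), and r was 0.81 without the 2 libraries farthest from the median score. The unadjusted p of 1.00e-05 is the smallest that 100000 permutations can give. With the dentate gyrus score r was 0.77 (permutation adjusted p = 0.00358; rho 0.69; 0.61 without 2 libraries), and with the neocortex score it was -0.77 (permutation adjusted p = 0.0016; rho -0.79; -0.70 without 2 libraries). For the CA1 score r was 0.83 (permutation adjusted p = 0.0159), but rho was 0.60 with an adjusted p of 0.165. In the 16 libraries without high striatum scores r was 0.84 with CA3, 0.66 with the dentate gyrus and 0.52 with CA1, and the relations to the dentate gyrus and CA1 did not pass an adjusted p of 0.05. Alpha5 is known for its strong expression in hippocampal pyramidal cells. Melanoma plus ICI replicate 3, lowest for Gabra5, was also lowest for the CA1, CA3 and dentate scores, at 5.67, 2.70 and 2.33, and highest for neocortex, at 4.52.

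Gabra3, an X-linked subunit more typical of neocortex and monoaminergic nuclei, ran the other way. It read 93.2, 25.4, 59.8, 77.5 and 52.4 CPM in control replicates 1 to 5 and 86, 71.1, 28.2, 34.4 and 89.4 CPM in the ICI mice. Gabra3 was at 60, 50, 75.5, 52.5 and 64.6 CPM in melanoma and 82.2, 103.8, 96.3, 68.9 and 69.6 CPM in melanoma plus ICI. The low libraries were control replicate 2 and ICI replicates 3 and 4, at 25.4, 28.2 and 34.4 CPM, and the 5 melanoma plus ICI mice lay at 68.9 CPM or above. Those 5 still overlapped the other groups, and melanoma plus ICI against melanoma was 0.48 on the log2 scale (SE 0.31, edgeR adjusted p = 0.825). Across the 20 libraries, Gabra3 had r = -0.78 with the dentate gyrus score (permutation adjusted p = 0.00284; rho -0.76; -0.83 without 2 libraries) and r = -0.77 with the CA3 score (permutation adjusted p = 0.00296; rho -0.84). The mean dentate score was 3.80 ± 0.85 in melanoma plus ICI, 4.34 ± 0.94 in melanoma, 4.92 ± 1.08 in control and 5.17 ± 0.94 in ICI (SD, n = 5), so the group with the highest Gabra3 had the lowest dentate markers. With the 4 region scores in the model, the log2 fold change of Gabra3 was 0.36.

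Gabra4, which pairs with delta in dentate granule cells, was among the steadier subunits. It read 66.4, 80.2, 70, 88.3 and 76.2 CPM in control replicates 1 to 5 and 76.7, 74.6, 98.7, 75.4 and 61.4 CPM in the ICI mice. Gabra4 was at 72.4, 64.8, 68.3, 62.5 and 62.4 CPM in melanoma and 79, 65.5, 66.5, 63 and 65.1 CPM in melanoma plus ICI. The tumour-bearing mice lay between 62.4 and 79 CPM, within the wider range of the tumour-free mice, 61.4 to 98.7 CPM. Melanoma against control was -0.21 on the log2 scale (SE 0.10), and ranked first among the members in that comparison (edgeR adjusted p = 0.877). Against ICI, melanoma plus ICI was -0.19 (SE 0.10, edgeR adjusted p = 0.594), -0.09 without ICI replicate 3 and 0.01 with the 4 region scores in the model. Gabra4 had r = -0.73 with the astrocyte score (permutation adjusted p = 0.0157; rho -0.68; -0.74 without 2 libraries; -0.73, no longer passing, in the 16 libraries without high striatum scores), a score that ranged only from 6.81 to 7.14. Gabra2, the remaining alpha subunit, averaged 79.3 ± 21.1, 77.8 ± 7.58, 68.4 ± 8.2 and 79.7 ± 29.8 CPM across control, ICI, melanoma and melanoma plus ICI (SD, n = 5). Its widest spread came from melanoma plus ICI replicate 3, at 30.7 CPM against 84.5 to 112.2 CPM in the other mice of that group.

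Gabra2, Gabra4, Gabrb1 and Gabrg1 lie in 1 cluster on chromosome 5, and Gabra5 and Gabrg3 in another on chromosome 7. In the deposited coordinates, Gabrg1 spans chr5:70751047-70842617, Gabra2 chr5:70957597-71095849, Gabra4 chr5:71569749-71658308 and Gabrb1 chr5:71658113-72149037. Gabra4 and Gabrb1 lie head to head on opposite strands and share 46 exon bases, so a read in that stretch could be counted for either if strand was not used. Per kilobase, Gabra2 exceeded Gabrg1 in 20 of 20 libraries. In the chromosome 5 cluster, melanoma plus ICI replicate 2 was highest for Gabra2 and Gabrg1, while ICI replicate 3 was highest for Gabra4 and ICI replicate 2 for Gabrb1.

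Of the beta subunits, Gabrb2 had the largest SD of log2 CPM among all 30 members, 0.70 beside 0.69 for Pvalb. That SD was at percentile 91.9 of all tested genes. It includes control replicate 4, at 14.9 CPM, and the rank was not recomputed without that library. Gabrb2 read 61.2, 94, 67.8, 14.9 and 76.9 CPM in control replicates 1 to 5 and 105.5, 127.2, 65.4, 97.5 and 102.9 CPM in the ICI mice. Gabrb2 was at 101.2, 75.4, 56.8, 53.4 and 92.3 CPM in melanoma and 30.8, 87.2, 99.6, 84.7 and 68 CPM in melanoma plus ICI. The 2 lowest libraries, control replicate 4 and melanoma plus ICI replicate 1, are those with the raised share of short transcripts. ICI against control was 0.66 on the log2 scale (SE 0.35, edgeR adjusted p = 0.766), 0.41 without control replicate 4 and 0.14 with the short-minus-long transcript value of each library as a covariate. Gabrb1 averaged 143 ± 17.8, 170 ± 32.1, 145 ± 12.6 and 148 ± 31.8 CPM across control, ICI, melanoma and melanoma plus ICI. ICI against control was 0.25 for it (SE 0.14, edgeR adjusted p = 0.766), 0.12 without ICI replicate 2 and 0.11 with the 4 region scores in the model. ICI replicate 2 read 225 CPM against 147 to 170 in the other ICI mice. Gabrb1 had r = -0.67 with the neocortex score (permutation adjusted p = 0.0118; rho -0.68; -0.50 without 2 libraries).

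Of the gamma and delta subunits, Gabrg1 and Gabrg3 were the lowest per kilobase of the 9 subunits of GABA-A receptors among the members, while Gabrd lay near Gabrb1 and Gabra2. Gabrg1, a subunit found in glia and in some subcortical nuclei, ranked first by p among the members for melanoma plus ICI against melanoma. It read 20.3, 10.5, 16.4, 24.5 and 12.7 CPM in control replicates 1 to 5 and 17.2, 19.6, 12.3, 17.2 and 21.1 CPM in the ICI mice. Gabrg1 was at 13.3, 12.5, 17.4, 19.1 and 16.1 CPM in melanoma and 16.9, 28.4, 16.1, 26 and 15.8 CPM in melanoma plus ICI. Melanoma plus ICI replicates 2 and 4 were highest, and the other 3 of that group lay within the range of melanoma. The log2 fold change was 0.40 (SE 0.22, edgeR adjusted p = 0.825), and 0.25 without melanoma plus ICI replicate 2. In the 16 libraries without high striatum markers, Gabrg1 had r = 0.75 with the striatum score (permutation adjusted p = 0.044; rho 0.75, adjusted p = 0.0586). Of the 4 libraries with high striatum scores, 1 lay above the median Gabrg1 of those 16, 17.2 CPM. Gabrg3 averaged 20.3 ± 2.43, 22.7 ± 6.14, 24.2 ± 4.07 and 24.1 ± 3.78 CPM in the 4 groups, in the order given above.

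Gabrd encodes the delta subunit of extrasynaptic receptors, known from dentate granule cells, neocortex and thalamus. It read 24.7, 26.4, 23.1, 45.5 and 41.7 CPM in control replicates 1 to 5 and 22.7, 23.3, 37.7, 26.3 and 19.4 CPM in the ICI mice. Gabrd was at 35.1, 24.4, 45.2, 15.9 and 37.9 CPM in melanoma and 51.2, 19.8, 60.1, 15.4 and 18.1 CPM in melanoma plus ICI. The 2 highest values of the series, 60.1 and 51.2 CPM, and 3 of the 5 lowest, 15.4, 18.1 and 19.8 CPM, all belonged to melanoma plus ICI. No difference between groups came near the threshold: melanoma plus ICI against ICI was 0.35 on the log2 scale (SE 0.36, edgeR adjusted p = 0.747), 0.02 without melanoma plus ICI replicate 3, 0.53 without melanoma plus ICI replicate 4 and -0.21 in limma voom. Gabrd had r = 0.72 with the neocortex score (permutation adjusted p = 0.00679; rho 0.60; 0.55 without 2 libraries; 0.61, no longer passing, in the 16 libraries without high striatum scores) and r = -0.70 with the oligodendrocyte precursor score (permutation adjusted p = 0.015; rho -0.70). Its r with the CA1 score was -0.70 (permutation adjusted p = 0.0103), while rho was -0.61 with an adjusted p of 0.161.

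**Figure D2:**
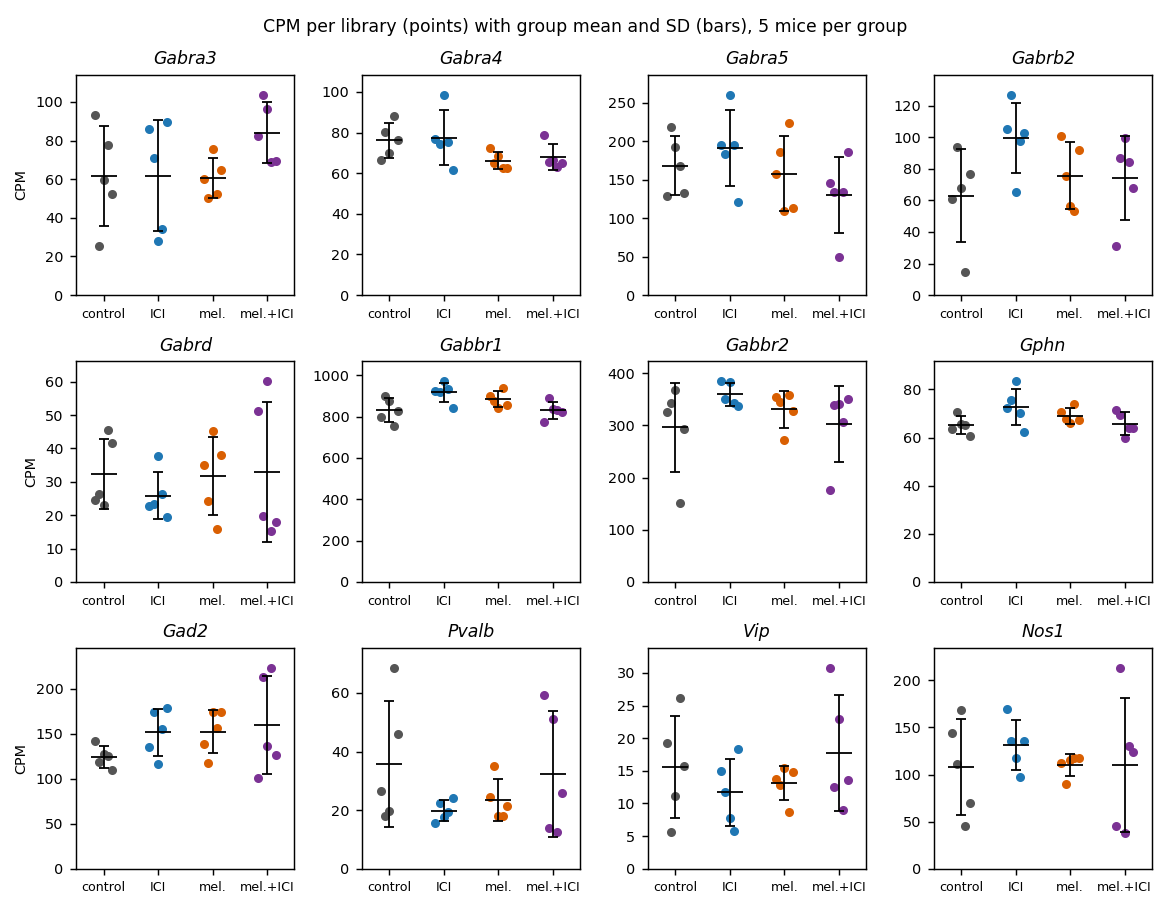
CPM of 12 of the genes in the 4 groups; each point is 1 mouse, and the mark with its bar is the mean ± SD (n = 5), on axes from 0. The groups overlap in every panel, and single mice carry much of the spread, as in Gabrb2 at 14.9 CPM in control replicate 4 and Gabra5 at 49.9 CPM in melanoma plus ICI replicate 3.

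The GABA-B receptor genes were abundant and, in the case of Gabbr1, steady. Gabbr1 holds the GABA-binding partner of the dimer and Gabbr2 the one that couples to G proteins. Gabbr1 read 799.7, 897.9, 876.9, 752.3 and 825.8 CPM in control replicates 1 to 5 and 922.7, 917.0, 969.7, 933.8 and 840.6 CPM in the ICI mice. Gabbr1 was at 901.1, 876.9, 839.7, 940.3 and 857.3 CPM in melanoma and 771.7, 887.9, 835.7, 830.5 and 821.6 CPM in melanoma plus ICI. Its SD of log2 CPM, 0.10, was the smallest of the members, at percentile 4.05 of all genes. Of its variance, 42.6% lay between groups, the largest share of the 30 members, whose median was 12.3% beside 14.5% for all tested genes. ICI mice averaged 917 ± 47.3 CPM, control 831 ± 58.7, melanoma 883 ± 39.3 and melanoma plus ICI 829 ± 41.4 (SD, n = 5). ICI against control was 0.14 on the log2 scale (SE 0.07, edgeR adjusted p = 0.766), and melanoma plus ICI against ICI was -0.14 (SE 0.07, adjusted p = 0.579). The interaction, meaning the difference that ICI made with a tumour less the difference it made without one, was -0.23 (SE 0.10, edgeR adjusted p = 0.484), and -0.18 with the 4 region scores in the model. Gabbr1 also had r = -0.74 with the neocortex score (permutation adjusted p = 0.00416; rho -0.74; -0.76 without 2 libraries).

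Gabbr2 read 325.8, 343.2, 368.9, 151.8 and 293.0 CPM in control replicates 1 to 5 and 384.4, 350.5, 382.8, 343.3 and 337.5 CPM in the ICI mice. Gabbr2 was at 354.1, 345.6, 271.2, 357.5 and 326.8 CPM in melanoma and 176.1, 338.8, 341.4, 306.4 and 349.8 CPM in melanoma plus ICI. Control replicate 4 and melanoma plus ICI replicate 1, at 152 and 176 CPM, lay far below the other 18 libraries, which ran from 271 to 384 CPM. The interaction was -0.41 for Gabbr2 (SE 0.27, edgeR adjusted p = 0.522), -0.23 without control replicate 4, -0.26 without melanoma plus ICI replicate 1 and -0.09 without both. It was -0.02 with the short-minus-long transcript value as a covariate. Its r with the neocortex score was -0.61 (permutation adjusted p = 0.0431; rho -0.72; -0.69 without 2 libraries).

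Gphn encodes gephyrin, the scaffold that holds GABA-A and glycine receptors at inhibitory synapses. Gphn read 63.5, 70.6, 65.7, 65.1 and 60.6 CPM in control replicates 1 to 5 and 72.4, 75.5, 83.3, 70 and 62.3 CPM in the ICI mice. Gphn was at 70.5, 67.5, 65.9, 73.8 and 67.2 CPM in melanoma and 71.6, 69.4, 59.6, 64.1 and 63.9 CPM in melanoma plus ICI. ICI replicate 3 was highest at 83.3 CPM and melanoma plus ICI replicate 3 lowest at 59.6 CPM. For ICI against control Gphn was the 1 member of 30 with an unadjusted p under 0.05 in edgeR, or 3.33%, beside 5.23% of all tested genes. The log2 fold change was 0.16 (SE 0.07, edgeR adjusted p = 0.766), and 0.10 without ICI replicate 3. The interaction was -0.23 (SE 0.10, edgeR adjusted p = 0.484) and -0.09 with the region scores. Gphn had r = 0.65 with the CA3 score (permutation adjusted p = 0.0259; rho 0.60, adjusted p = 0.0586), and 0.59, no longer passing, in the 16 libraries without high striatum scores.

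GABA is made by the decarboxylases GAD67, from Gad1, and GAD65, from Gad2. Gad1 was the steadier of the pair, at 334 ± 34.7, 352 ± 30, 334 ± 16.2 and 358 ± 28 CPM across control, ICI, melanoma and melanoma plus ICI, with an SD of log2 CPM of 0.12 over all libraries. Gad2 read 141.6, 118.4, 127.5, 125.7 and 109.5 CPM in control replicates 1 to 5 and 135.0, 174.7, 116.8, 154.9 and 178.5 CPM in the ICI mice. Gad2 was at 139.0, 118.1, 174.0, 156.1 and 174.6 CPM in melanoma and 101.3, 212.7, 136.8, 222.9 and 126.2 CPM in melanoma plus ICI. Melanoma plus ICI held both the lowest library of the series, replicate 1 at 101 CPM, and the highest, replicate 4 at 223 CPM. Against control that group was at 0.36 on the log2 scale (SE 0.18, edgeR adjusted p = 1), which ranked first among the members by p. The value was 0.23 without melanoma plus ICI replicate 2, 0.21 without replicate 4 and 0.15 with the region scores. It was 0.48 without melanoma plus ICI replicate 1, and the alternatives ran up to 0.59. Gad1 had r = 0.75 with the striatum score in the 16 libraries of the lower cluster (permutation adjusted p = 0.0409, rho 0.78 with adjusted p = 0.0404, r 0.61 without 2 libraries). The 4 libraries with high striatum scores were not higher for Gad1. Melanoma replicates 1, 3 and 5 read 334.2, 328.6 and 360.9 CPM and melanoma plus ICI replicate 3 322.1 CPM, beside a median of 342.4 CPM in the 16.

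Slc32a1 encodes the vesicular GABA transporter, which loads the transmitter into synaptic vesicles. It read 97, 67.1, 80.3, 118.4 and 79.9 CPM in control replicates 1 to 5 and 84.2, 99.4, 74.6, 101.0 and 111.0 CPM in the ICI mice. Slc32a1 was at 92.8, 84.4, 120.7, 109.6 and 117.8 CPM in melanoma and 85.5, 113.9, 105.7, 132.1 and 84.8 CPM in melanoma plus ICI. The lowest library was control replicate 2 and the highest melanoma plus ICI replicate 4. That control library was lowest for 9 of the 30 members, and that melanoma plus ICI library was highest for 3, namely Gad2, Slc32a1 and Dlx1. Melanoma against control was 0.25 on the log2 scale (SE 0.16, edgeR adjusted p = 0.877), 0.15 without control replicate 2, 0.37 without control replicate 4 and 0.08 with the striatum score as a covariate. About 24.9% of the exon bases of Slc32a1 overlap Gm14205 on the opposite strand, whose own counts were 0.0455% of those of Slc32a1. Slc6a11, the transporter GAT-3 that clears GABA into astrocytes, averaged 149 ± 27, 159 ± 22.9, 144 ± 10.5 and 164 ± 29.4 CPM. It had r = 0.77 with the oligodendrocyte precursor score (permutation adjusted p = 0.00456; rho 0.84, adjusted p = 0.00801; 0.67 without 2 libraries).

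The neuropeptide genes mark separate classes of interneuron: somatostatin the dendrite-targeting cells, vasoactive intestinal peptide the cells that inhibit other interneurons, neuropeptide Y neurogliaform and other cells, and cholecystokinin a class of basket cells. Cck is also expressed by pyramidal cells. Sst, Npy and Cck are short, at 599, 566 and 1305 exon bases, and all 3 were highest in control replicate 4. Vip, at 3402 bases, was highest in melanoma plus ICI replicate 1. Transcription of Sst and Vip is known to respond to cyclic AMP through sites in the proximal promoter. The 150 bases before the RefSeq start (GRCm38.p6, 5′ to 3′ on the gene's strand) are shown so that the 4 peptide genes can be compared at the sequence level. Capitals mark the longest of TGACGTCA, TGACGT and CGTCA found on either strand, forms of the cyclic AMP response element that lie within each other. The Sst stretch is chr16:23890845-23890994 (minus strand), that of Vip chr10:5639068-5639217 (plus strand), that of Cck chr9:121495695-121495844 (minus strand) and that of Npy chr6:49822560-49822709 (plus strand).
Sst: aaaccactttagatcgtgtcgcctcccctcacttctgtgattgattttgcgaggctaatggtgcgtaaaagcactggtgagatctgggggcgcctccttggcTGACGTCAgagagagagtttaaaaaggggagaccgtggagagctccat
Vip: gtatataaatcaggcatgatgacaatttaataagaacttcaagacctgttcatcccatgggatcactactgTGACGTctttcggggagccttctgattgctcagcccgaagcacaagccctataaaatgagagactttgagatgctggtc
Cck: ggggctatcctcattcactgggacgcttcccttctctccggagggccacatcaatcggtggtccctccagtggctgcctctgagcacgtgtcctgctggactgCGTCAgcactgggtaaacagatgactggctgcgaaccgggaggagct
Npy: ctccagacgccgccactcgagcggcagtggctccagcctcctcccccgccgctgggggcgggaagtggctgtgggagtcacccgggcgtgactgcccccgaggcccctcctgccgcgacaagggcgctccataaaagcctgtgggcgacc

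The palindrome TGACGTCA stood 40 bases before the Sst start, TGACGT 73 bases before the Vip start and CGTCA 42 bases before the Cck start, while none of the 3 was found for Npy. Of 32851 RefSeq promoters (250 bases before the start), 1.55% held TGACGTCA, 6.47% held TGACGT and 17.8% held CGTCA. Of the 43 promoters of 29 members in that table, 1, 3 and 7 did. A match is a description of letters and not a site shown to be used here.

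Sst averaged 152 ± 53.2, 129 ± 22.3, 131 ± 8.79 and 144 ± 30.6 CPM across control, ICI, melanoma and melanoma plus ICI (SD, n = 5), with its lowest value in control replicate 2 and its highest, 239 CPM, in control replicate 4. Cck averaged 209 ± 75.7, 178 ± 38.2, 170 ± 28.6 and 174 ± 54.3 CPM, with control replicate 4 at 344 CPM against 167 to 183 CPM in the other control mice. Npy averaged 31.2 ± 12.6, 23.3 ± 3.52, 23.8 ± 2.82 and 28 ± 13.7 CPM, with its highest value, 53.1 CPM, again in control replicate 4. The control means of these genes thus lean on 1 library rich in short transcripts. Their log2 fold changes of ICI against control were -0.23 for Sst (SE 0.19), -0.23 for Cck (SE 0.22) and -0.42 for Npy (SE 0.27), all with an edgeR adjusted p of at least 0.766. Without control replicate 4 they were -0.01 for Sst, 0.02 for Cck and -0.15 for Npy. With the short-minus-long transcript value as a covariate they were 0.07, 0.12 and -0.05. Sst was at -0.35 without control replicate 2, and Cck at -0.38 without ICI replicate 3. Npy had r = -0.80 with the oligodendrocyte precursor score (permutation adjusted p = 0.00456, rho -0.63 with adjusted p = 0.0669, r -0.72 without 2 libraries). Cck had r = -0.70 with the same score (permutation adjusted p = 0.0166, rho -0.66 with adjusted p = 0.0505, r -0.67 without 2 libraries).

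Vip was the most variable peptide gene and the one most closely tied to neocortical markers. It read 19.2, 5.66, 11.1, 26.2 and 15.8 CPM in control replicates 1 to 5 and 14.9, 11.7, 7.76, 5.81 and 18.4 CPM in the ICI mice. Vip was at 13.7, 12.9, 15.4, 8.74 and 14.8 CPM in melanoma and 30.7, 12.5, 23, 8.96 and 13.6 CPM in melanoma plus ICI. The 3 highest libraries, melanoma plus ICI replicates 1 and 3 and control replicate 4, at 30.7, 23 and 26.2 CPM, also held the 3 highest neocortex scores, 4.10, 4.52 and 3.91. The r between Vip and that score was 0.84 (permutation adjusted p = 0.000877; rho 0.86, adjusted p = 0.00098), 0.80 without 2 libraries and 0.82 after centring on the group means. Vip also had r = -0.65 with the dentate gyrus score (permutation adjusted p = 0.0282; rho -0.62). Its interaction was 0.85 on the log2 scale (SE 0.53, edgeR adjusted p = 0.512), 0.56 without melanoma plus ICI replicate 1, 0.12 in limma voom and 0.15 with the region scores in the model.

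Pvalb marks fast-spiking basket and axo-axonic cells, which are dense in neocortex as well as in the hippocampal pyramidal layers. Pvalb read 26.5, 18, 19.6, 68.4 and 46 CPM in control replicates 1 to 5 and 15.5, 22.6, 17.7, 19.2 and 24.2 CPM in the ICI mice. Pvalb was at 24.4, 35.2, 18.1, 18 and 21.4 CPM in melanoma and 59.3, 13.8, 51, 12.4 and 25.7 CPM in melanoma plus ICI. The 5 ICI mice lay between 15.5 and 24.2 CPM, while control and melanoma plus ICI each held libraries at 46 to 68.4 CPM beside others at 12.4 to 26.5 CPM. Pvalb was 1 of 3 members with an unadjusted p under 0.05 for the interaction in edgeR, with Gabbr1 and Gphn, or 10% beside 10.3% of all tested genes. The interaction was 1.32 on the log2 scale (SE 0.58, edgeR adjusted p = 0.484). Its 2 terms were -0.85 (SE 0.41, edgeR adjusted p = 0.766) for ICI against control and 0.47 (SE 0.41, adjusted p = 0.826) for melanoma plus ICI against melanoma.

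These Pvalb differences moved with the tissue markers and with single libraries. Across the 20 libraries r with the neocortex score was 0.82 (permutation adjusted p = 0.000877; rho 0.77, adjusted p = 0.0047), 0.73 without 2 libraries and 0.83 after centring on the group means. With the 4 region scores in the model the interaction was -0.07, and ICI against control was -0.15. Limma voom gave 0.12 and -0.38 for them. Without control replicate 4, ICI against control was -0.48 and the interaction 0.95, and without melanoma plus ICI replicate 1 the interaction was 0.99. ICI against control was -1.02 without control replicate 2, and the interaction 1.54 without melanoma plus ICI replicate 4. Melanoma plus ICI against ICI was 0.71 (SE 0.41, edgeR adjusted p = 0.607), 0.37 without melanoma plus ICI replicate 1, 0.92 without melanoma plus ICI replicate 4 and -0.01 with the region scores. The summed CPM of the 7 neocortex markers ran from 71.9 to 173 in control mice and from 95.3 to 238 in melanoma plus ICI. ICI mice lay between 82.4 and 162, and melanoma mice between 82.5 and 133. Pvalb is also short, at 1041 exon bases. Its 2 highest libraries, control replicate 4 and melanoma plus ICI replicate 1, were those with the raised short-minus-long values, 0.61 and 0.35. The separate parts of tissue and of transcript length in the Pvalb differences were not tested.

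**Figure D3:**
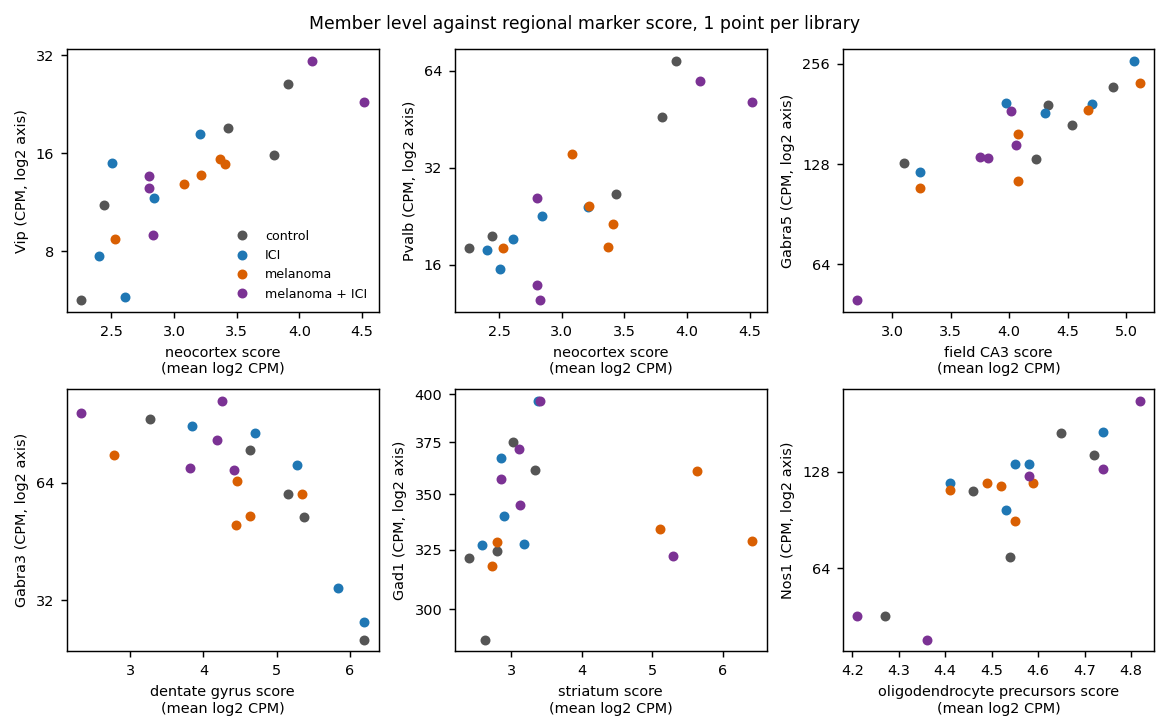
Log2 CPM of 6 genes against a marker score (mean log2 CPM of the list) in single libraries, coloured by group, with r from all 20 libraries or, for the striatum score, from the 16 of the lower cluster. Vip and Pvalb rise with the neocortex score (r = 0.84 and 0.82), Gabra5 with CA3 (0.85), Gad1 with striatum within those 16 (0.75) and Nos1 with oligodendrocyte precursors (0.83), and Gabra3 falls with the dentate gyrus score (-0.78).

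Transcription factor genes of the interneuron lineage varied about as much as the typical gene, with SDs of log2 CPM of 0.32 for Lhx6, 0.31 for Sox6 and 0.28 for Dlx1 beside a median of 0.27 over all genes. Lhx6 and Sox6 act in cells born in the medial ganglionic eminence, the source of the Sst and Pvalb classes, and Dlx1 in GABAergic neurons more widely. Lhx6 read 29.7, 13.5, 22.6, 16.4 and 19.8 CPM in control replicates 1 to 5 and 24.4, 20.5, 16.1, 15.4 and 24.1 CPM in the ICI mice. Lhx6 was at 19.2, 22.1, 25.9, 15.9 and 24 CPM in melanoma and 16.4, 27.3, 19.6, 17.5 and 25.4 CPM in melanoma plus ICI. Only 2.12% of its variance lay between groups, the smallest share among the members, and melanoma plus ICI against ICI was 0.08 on the log2 scale (SE 0.20, edgeR adjusted p = 0.902). Lhx6 had r = -0.64 with the CA3 score (permutation adjusted p = 0.03; rho -0.71, adjusted p = 0.0145; -0.74 without 2 libraries). Sox6, which is also expressed in oligodendrocyte precursors, averaged 18.5 ± 3.54, 21.3 ± 5.48, 20.9 ± 3.22 and 22.7 ± 4.33 CPM in the 4 groups. Its r was -0.67 with CA3 (permutation adjusted p = 0.0203; rho -0.72) and 0.65 with oligodendrocyte precursors (permutation adjusted p = 0.0284; rho 0.65, adjusted p = 0.0564). Dlx1 averaged 50.9 ± 5.84, 52.3 ± 10.7, 57.8 ± 10.6 and 58 ± 14.8 CPM and passed with none of the 10 scores. The antisense gene Dlx1as, which overlaps 6.21% of its exon bases, held 10.7% as many counts as Dlx1.

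Of the other markers, Nos1, the neuronal nitric oxide synthase found in neurogliaform and long-range cells, varied most. Nos1 read 144.5, 111.3, 168.8, 45.3 and 69.3 CPM in control replicates 1 to 5 and 170.0, 135.6, 117.6, 97.4 and 135.4 CPM in the ICI mice. Nos1 was at 111.8, 89.9, 115.5, 117.8 and 117.8 CPM in melanoma and 45.5, 212.8, 38.4, 130.2 and 124.4 CPM in melanoma plus ICI. The lowest were melanoma plus ICI replicates 3 and 1 and control replicate 4, at 38.4, 45.5 and 45.3 CPM, and the highest was melanoma plus ICI replicate 2. ICI against control was 0.28 on the log2 scale (SE 0.38, edgeR adjusted p = 0.837), 0.08 without control replicate 4, 0.50 without control replicate 3 and -0.09 with the region scores. The r of Nos1 with the oligodendrocyte precursor score was 0.83 (permutation adjusted p = 0.00252; rho 0.84, adjusted p = 0.00737; 0.74 without 2 libraries), and with the oligodendrocyte score it was -0.69 (permutation adjusted p = 0.0294; rho -0.85). That precursor score rests on 3 markers and ranged from 4.21 to 4.82, with its lowest values in the same libraries, 4.21 in melanoma plus ICI replicate 1 and 4.27 in control replicate 4 and 4.36 in melanoma plus ICI replicate 3.

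Reln, the secreted glycoprotein of neurogliaform and Cajal-Retzius cells, averaged 81.3 ± 46.8, 113.4 ± 51.5, 80 ± 20.8 and 95.8 ± 29 CPM in the 4 groups, and had r = 0.74 with the oligodendrocyte precursor score (permutation adjusted p = 0.00819; rho 0.77). The receptor tyrosine kinase gene Kit averaged 85.5 ± 43.7, 93 ± 28.4, 103.9 ± 18.7 and 97.6 ± 35.9 CPM. Erbb4, the neuregulin receptor of interneurons, averaged 47.4 ± 6, 57.9 ± 20.3, 50 ± 12.1 and 55.9 ± 6.99 CPM, with r = -0.67 to CA3 (permutation adjusted p = 0.0211; rho -0.70). Nxph1, a secreted ligand of neurexins, stood at 31.4 ± 9.42, 31.9 ± 8.14, 27.9 ± 1.91 and 34 ± 4.94 CPM. The long noncoding RNA Dlx6os1 stood at 13 ± 2.01, 13.8 ± 3.73, 13.5 ± 2.88 and 14.9 ± 1.12 CPM.

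In edgeR few members had a low p in any group comparison, and the count moved with single libraries. At an unadjusted p under 0.05 it was 1 of 30 for ICI against control, 3 for the interaction and 0 in the other 4 comparisons. Leaving out each library in turn, it ran from 0 to 4 for ICI against control, with 0 in 11 of 20 cases and 4 without control replicate 2. For the interaction it ran from 0, without control replicate 4 or melanoma replicate 4, to 4, without control replicate 2 or melanoma plus ICI replicate 2. It ran from 0 to 4 (without ICI replicate 5) for melanoma plus ICI against ICI and from 0 to 3 (without melanoma plus ICI replicate 1) for melanoma plus ICI against control, and was at most 1 in the other 2 comparisons. DESeq2 shares are over the 35051 genes to which it gave a p, low counts included, and those of edgeR and limma voom over the 18427 genes that passed the filter. For ICI against control, 22 of 30 members had a positive and 8 a negative log2 fold change, beside 48% of all tested genes above 0. The median of the members was 0.09 beside -0.010 over all genes. At an unadjusted p under 0.05, DESeq2 gave 3 members (3.5% of all genes) and limma voom 2 (7.27%). Of the 30, 0 had an unadjusted p under 0.05 for melanoma against control in edgeR (5.11% of all genes did), and 15 lay above and 15 below 0, with a median of 0.01 beside -0.010. Limma voom gave 1 such member there (6.97% of all genes) and DESeq2 gave 0 (3.53%). For melanoma plus ICI against control the count was 0 in edgeR (2.38% of all genes), 0 in DESeq2 (1.86%) and 4 in limma voom (5.37%), with 23 members above 0 and a median of 0.11 beside 0.003. Over all tested genes, 48% lay above 0 for melanoma against control and 50.7% for melanoma plus ICI against control.

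Within tumour-bearing mice, melanoma plus ICI against melanoma had 0 of 30 members at an unadjusted p under 0.05 in edgeR (5.5% of all genes), 0 in DESeq2 (3.76%) and 2 in limma voom (14.9%). Of the members, 20 were above 0, with a median of 0.06 beside 0.017. Melanoma plus ICI against ICI had 0 members in edgeR (8.63% of all genes), 2 in DESeq2 (5.65%) and 3 in limma voom (11.7%), with 19 above 0 and a median of 0.07 beside 0.025. For the interaction, 15 were above and 15 below 0, with a median of -0.01 beside 0.025, and DESeq2 gave 3 members (6.6% of all genes) and limma voom 2 (12.7%) at an unadjusted p under 0.05. Over all tested genes, 53.5% lay above 0 for melanoma plus ICI against melanoma, 55% against ICI and 52.8% for the interaction. The 6 comparisons share groups, the control mice in 3 of the pairwise ones, so their directions are not independent of each other.

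An adjusted p under 0.05 was reached by 0 of 30 members in each of the 6 comparisons, where edgeR called 0% of all tested genes. DESeq2 and limma voom also called 0 members in each, while over all genes DESeq2 called 0.00285% for ICI against control, 0.0171% for melanoma against control, 0.0941% in the interaction and 0.0257% where melanoma plus ICI was set against ICI. Limma voom called 0.00543% for melanoma against control, 0.103% for the interaction, 0.136% for melanoma plus ICI against melanoma and 0% otherwise. No member had groups of log2 CPM that did not overlap in any of the 5 pairwise comparisons. Over all tested genes that share was 0.885% for ICI against control, 1.04% for melanoma against control, 0.304% for melanoma plus ICI against control, 1.54% against melanoma and 1.45% against ICI. With 5 mice a group and a median member SD of 0.33 on the log2 scale, beside 0.27 for all genes, these tests do not show that the groups were alike. The replicates are separate brains according to the labels.

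**Figure D4:**
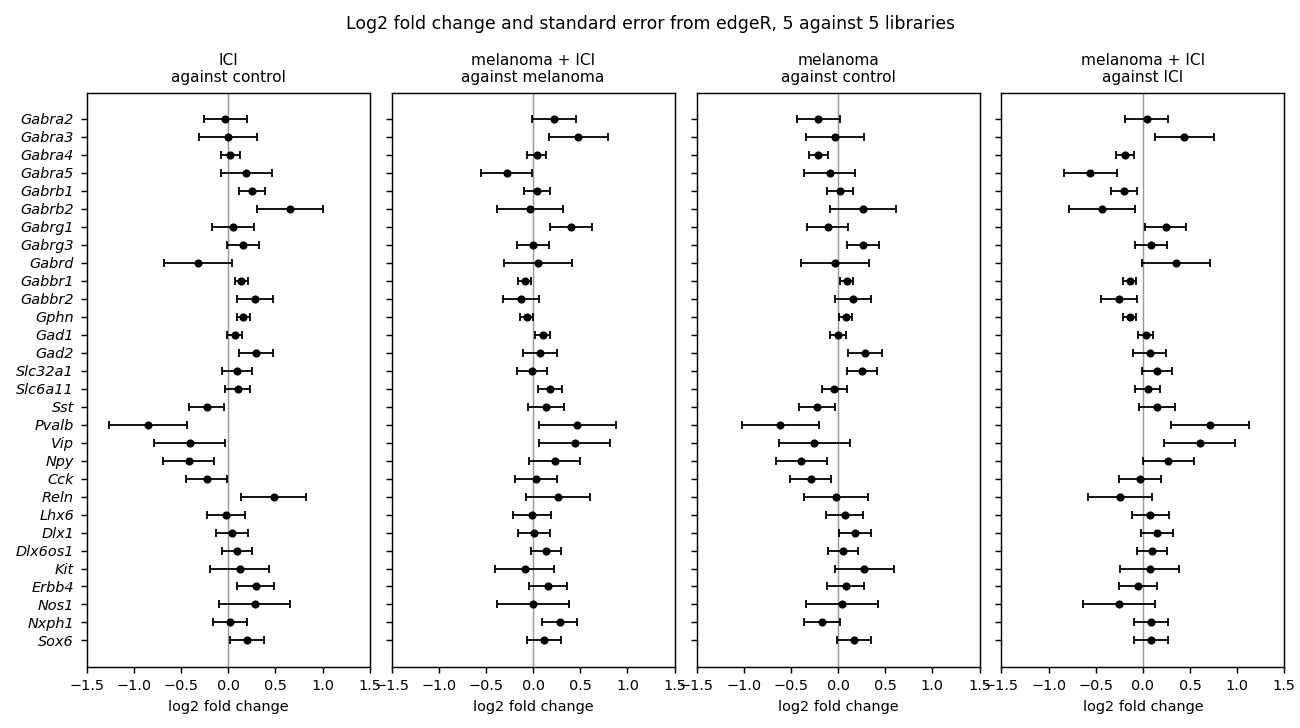
Log2 fold changes of the 30 genes in 4 comparisons, ordered by role, with bars of ± SE from edgeR's quasi-likelihood fit (5 against 5 mice). For ICI against control the lowest and highest points are Pvalb at -0.85 and Gabrb2 at 0.66, and no gene passed the adjusted threshold.

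A wider list of GABA signalling and interneuron genes was tested in the same fits. It held 51 genes, among them further receptor subunits, GABA breakdown, chloride transporters, receptor-associated proteins and other interneuron markers. Of these, 49 were tested and Gabrr1 and Gabra6 were too low. In edgeR, 0 of 49 passed the adjusted threshold in any comparison. At an unadjusted p under 0.05, 1 gene was higher and 2 lower for ICI against control, or 6.12% of the list beside 5.23% of all genes, and 3 and 1 for melanoma against control, or 8.16% beside 5.11%. For melanoma plus ICI the counts were 1 and 2 against control (6.12% beside 2.38%), 2 and 2 against melanoma (8.16% beside 5.5%) and 4 and 3 against ICI (14.3% beside 8.63%). The interaction gave 5 and 3, or 16.3% beside 10.3%. The smallest p in the first was that of Cort, encoding the peptide cortistatin, at -0.61 on the log2 scale (SE 0.24, edgeR adjusted p = 0.766). For the others these were Gabrr2, a rho receptor subunit, at 1.21 (SE 0.42, adjusted p = 0.813), the transcription factor gene Npas1 at -0.26 (SE 0.10, adjusted p = 1) and -0.24 (SE 0.10, adjusted p = 0.825), Adarb2, a marker of another interneuron lineage, at -0.57 (SE 0.16, adjusted p = 0.563) and Lamp5 at 1.71 (SE 0.62, adjusted p = 0.477). With the region scores in the model, the interaction of Lamp5, a marker of neurogliaform cells, was 0.22.

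Taken over all marker scores, 41 of the 300 relations between a member and a score passed an adjusted p of 0.05, or 13.7%. Over all tested genes the share was 6.64%, and it differed between scores. For neocortex, 9 of 30 members passed beside 15.7% of all genes. Of the 9, 4 were positive (Gabrd, Pvalb, Vip and Npy) beside 7.37% of all genes, and 5 were negative (Gabra5, Gabrb1, Gabbr1, Gabbr2 and Nos1) beside 8.3%. For oligodendrocyte precursors 10 of 30 passed beside 13% of all genes, for CA3 6 beside 9.5%, for the dentate gyrus 3 beside 8.43%, for astrocytes 4 beside 5.4%, for CA1 3 beside 4.35%, for oligodendrocytes 3 beside 4.36% and for striatum 3 beside 2.48%. The 3 for striatum were Gabrg1, Gad1 and Nxph1, within the 16 lower libraries. Of the 4 libraries with high striatum scores, 1, 1 and 0 lay above the median of those 16 for them. With the thalamus and choroid plexus scores 0 of 30 members passed, beside 0% and 3.24% of all genes. The members that passed with none of the 10 scores were Gabra2, Gabrb2, Gabrg3, Slc32a1, Sst, Kit, Dlx1 and Dlx6os1. Gabrb2, with an SD of 0.70 beside 0.69 for Pvalb, had its largest r with the oligodendrocyte precursor score (0.53, permutation adjusted p = 0.0817). Members and markers were read in the same libraries, so a shared library effect enters both. What part dissection, cell numbers or RNA quality has in these relations was not tested.

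**Figure D5:**
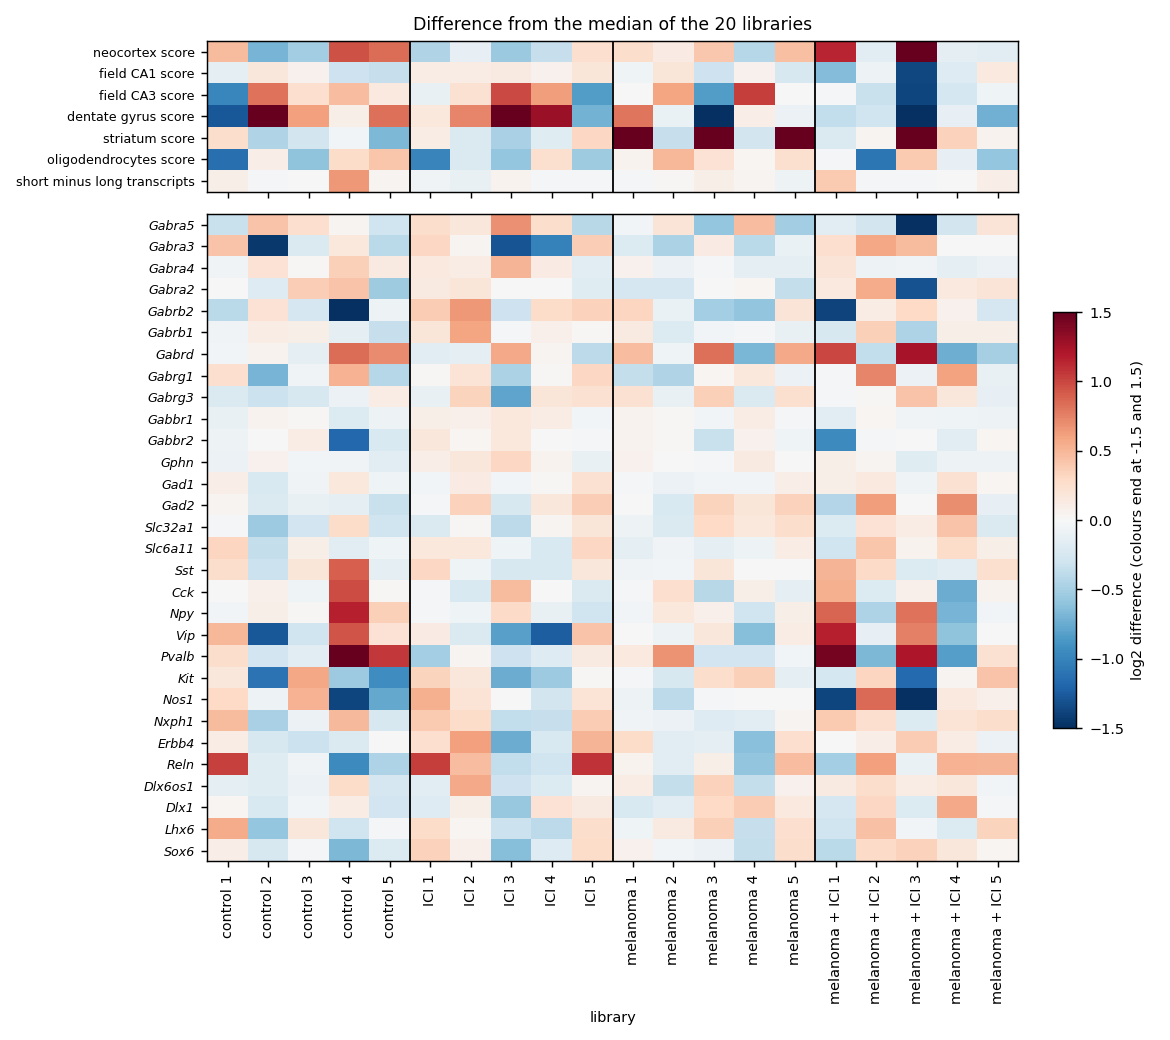
Log2 difference of each gene from its median over the 20 libraries (columns, by group), with 6 marker scores and the short-minus-long transcript value in the top rows, the colours ending at ±1.5. Control replicate 4 is high for Sst, Pvalb, Npy, Cck and Nxph1 and low for Gabrb2, Gabbr2 and Reln, and melanoma plus ICI replicate 3 is low for Gabra2, Gabra5, Kit and Nos1 and high for Gabrd.

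A few libraries held many of the highest and lowest values. Control replicate 4 was highest for 5 members (Sst, Pvalb, Npy, Cck and Nxph1) and lowest for 5 (Gabrb2, Gabbr1, Gabbr2, Reln and Sox6). Control replicate 2, with the highest dentate score at 6.20 and the lowest neocortex score at 2.26, was lowest for 9 members: Gabra3, Gabrg1, Gad1, Slc32a1, Slc6a11, Sst, Vip, Lhx6 and Nxph1. Melanoma plus ICI replicate 3 was lowest for 6 members (Gabra2, Gabra5, Gabrb1, Gphn, Kit and Nos1) and highest for Gabrg3 and Gabrd. Melanoma plus ICI replicate 2 was highest for Gabra2, Gabra3, Gabrg1, Slc6a11 and Nos1. The melanoma group held 0 of the highest values and 1 of the lowest, that of Dlx6os1 in replicate 2.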

How the data were processed

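RNA from 1 frozen hippocampus per mouse was sequenced in bulk, and each of the 20 libraries was given as a table of raw counts per gene, which are the authors' deposited counts, unnormalized whole numbers. The submitters' processing notes name STAR 2.5.2b and DESeq2 1.16.1. The counting program, strandedness and genome build are not given in the sources used here. Of the 49671 identifiers, 49412 occur in GENCODE M21 (GRCm38), which supplied the symbols, and 28 of 30 members have the same start and end there.

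Groups and replicate numbers came from the sample titles. Genes were kept by filterByExpr (minimum count 10, minimum total 15), which left 18427 genes holding 99.91% of the counts. Totals were scaled by TMM (factors 0.9555 to 1.0432), and 1 edgeR 4.0.16 quasi-likelihood model (R 4.3.3, robust, 16 residual degrees of freedom) gave all 6 comparisons, adjusted by Benjamini-Hochberg over all tested genes at 0.05. It was tested on simulated data. Log2 CPM used a prior count of 2. Within groups, 40 pairs of libraries gave a chi-square per gene of 10.48 to 120.2, so no library was taken as deposited more than once.

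Scores are mean log2 CPM of marker lists for striatum, neocortex, dentate gyrus, CA1, CA3, thalamus, choroid plexus, astrocytes, oligodendrocytes and oligodendrocyte precursors. The 4 used together as covariates are striatum, neocortex, dentate gyrus and choroid plexus. The 300 correlations used 100000 permutations, two-sided. The plan adjusted them over the 300 pairs, but the p-values printed are adjusted over all tested genes per score, the score's own markers left out. The striatum score fell into separate clusters, so r is given only within the 16 lower libraries. Members named with values in every library were those with the smallest p per comparison and the most variable one of each role, plus Gabra5, picked after its values were seen. The members and lists were chosen with earlier results of these data known. Dlx6os1 is the identifier with most counts, the other holding 8. Alternatives were DESeq2 1.42.0 with its own size factors, limma 3.58.1 voom with quality weights, edgeR with size factors, no filter, a fit to only the groups compared, the replicate block, region scores and fewer libraries. Promoter sequences are RefSeq's (GRCm38.p6).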

Additional observations from a re-analysis of the deposited data

Results flagged for a closer look

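Among the 120 combinations of a member and a group, 9 held 1 mouse far from the other 4 on the log2 scale, beside the 5% that chance gives. Melanoma plus ICI replicate 3 was lowest of its group for Gabra2, at 30.7 CPM against 84.5 to 112.2, and for Gabra5, at 49.9 CPM against 134 to 185. Control replicate 4 was lowest for Gabrb2, at 14.9 CPM against 61.2 to 94, and for Gabbr2, at 152 CPM against 293 to 369, and highest for Cck, at 344 CPM against 167 to 183. Melanoma plus ICI replicate 1 was lowest for Gabbr2, at 176 CPM against 306 to 350, and highest for Gabra4, at 79 CPM against 63 to 66.5. Melanoma replicate 3 was highest for Sst, at 146 CPM against 124 to 129, and melanoma replicate 2 lowest for Nos1, at 89.9 CPM against 111.8 to 117.8. Of the 9, 7 lay in control replicate 4 and melanoma plus ICI replicates 1 and 3, the libraries set apart by transcript length or by low hippocampal field scores. What part those features have in these values was not tested.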

How the results depend on the processing

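The count of members past an adjusted p of 0.05 was 0 in every alternative and comparison, 191 in all, and so was that of the wider list. Over all genes the count, 0 in the edgeR fit, was 1 in DESeq2 and 1 with the transcript length trend as a covariate for ICI against control. It was 6 in DESeq2, 1 in limma voom, 3 with only the groups compared, 4 without 3 libraries (control 4, melanoma plus ICI 1 and 3) and 0 to 3 on leaving out each library in turn for melanoma against control. For melanoma plus ICI against melanoma it was 25 in limma voom, 1 without the libraries with high striatum scores, 45 without those 3 libraries and 0 to 12 on leaving out 1, the 12 without melanoma plus ICI replicate 3. DESeq2 gave 9 for melanoma plus ICI against ICI. The interaction gave 33 in DESeq2, 19 in limma voom, 1 without control replicate 4 and melanoma plus ICI replicate 1 together, 5 with the length trend, 27 without the 3 libraries and 0 to 11 on leaving out 1, the 11 without melanoma plus ICI replicate 3. The cause was not tested. The length trend and the removal of 3 libraries were chosen after seeing the data. Of 1018 alternative values of named genes' log2 fold changes, 19 changed sign. For melanoma plus ICI against ICI these were Gabra4 at 0.01, Gabra5 at 0.11, Gphn at 0.02, Lhx6 at -0.08 and Pvalb at -0.01 with 4 region scores, Gabrd at -0.21 in limma voom, and Gabrd at -0.54 and Pvalb at -0.20 without the 3 libraries. Leaving out 1 library put Lhx6 between -0.03 (melanoma plus ICI replicate 2) and 0.16, with -0.01 without ICI replicate 4. For ICI against control, Cck ran from -0.38 (without ICI replicate 3) to 0.02 (without control replicate 4) on leaving out 1 library, and was 0.02 without that library and melanoma plus ICI replicate 1, 0.01 without the 3 libraries and 0.12 with the length trend, with which Sst was 0.07. Nos1 for ICI against control was -0.09 with the region scores and -0.09 with the length trend, and the interaction was -0.07 for Pvalb with the region scores and -0.01 for Vip without the 3 libraries. The replicate block called 0 genes and 0 members in each comparison. The numbers give no sign of pairing, since same-numbered libraries of different groups had correlated deviations over 0.1 in 10 of 30 pairs (-0.35 to 0.528), and 6 of 20 libraries correlated best with their own number. Member relations to the scores numbered 41, 41 with a prior count of 0.5, 33 in the 16 libraries without high striatum scores and 61 adjusted over the 300 pairs. In those 16 libraries, r no longer passed for Gabra5 with CA1 (0.52) and dentate gyrus (0.66), Gabrd with neocortex (0.61), Gphn with CA3 (0.59), Npy with neocortex (0.62), Gabra4 with astrocytes (-0.73) and Nos1 with CA1 (0.65).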
